A study of Rattus norvegicus with 4 samples.

Results

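The genes described here are S100a8, S100a9, Camp, Ngp, RatNP-3b and Alox15, 6 of the 32623 genes in the deposited matrix, grouped under the working name neutrophil granule genes. They were chosen from these data, from their summed levels in each capture area and from how their transcripts gathered in few spots, so those levels are given below as a description with no test. The series profiled rat trigeminal tissue (root, semilunar ganglion and proximal branches) with Visium, which captures polyadenylated RNA of a tissue section on an array of barcoded spots and counts unique molecular identifiers (UMIs), each standing for 1 captured transcript. Capture areas TN1, TN2 and TN3 each held tissue from the compressed side of 1 wild type rat of a unilateral trigeminal root compression model of trigeminal neuralgia (TN), and area HC held healthy control tissue of 2 rats. The animals were adult male Sprague–Dawley rats by the study's methods. The series record describes HC as the uncompressed side of animals that also gave TN tissue, whereas the methods describe sham-operated controls, and the barcodes do not separate the 2 HC animals. HC is therefore 1 sample, and the control condition, the animals, the tissue that was mounted and the capture area cannot be told apart.

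Neutrophils load their granules while they mature in bone marrow. Myeloperoxidase, serine proteases and defensins of the primary granule are made early, and the cathelicidin-type proteins of the secondary granule follow. S100a8 and S100a9 encode the subunits of calprotectin, a calcium- and zinc-binding protein that fills the cytosol of neutrophils and is also made by monocytes, so it is not itself a granule protein. Camp encodes the rat cathelicidin and Ngp a related secondary granule protein, while RatNP-3b encodes an alpha-defensin of the primary granule. Alox15 encodes a lipoxygenase that oxidises polyunsaturated fatty acids. It is not known as a granule protein, and reticulocytes, eosinophils and some macrophages are its usual sources, so the working name does not cover it. A spot covers several cells, and fewer cells of a type cannot be told apart from less RNA per cell.

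The upstream sequences of these genes are shown first because the results below turn on which of them move together. RefSeq promoter entries on the GRCr8 build were matched by symbol for 4 of the 6 genes (S100a9, Camp, Ngp and RatNP-3b) and for Np4, the defensin gene most like RatNP-3b over spots. S100a8 and Alox15 had no entry. Each line gives 250 bases up to the annotated start, 5′ to 3′ on the gene's strand, with matches to any of 4 motifs in capitals on either strand: the C/EBP motif TTNNGNAA, the motif of PU.1 spelled GGAAGT, the motif of GATA factors spelled AGATAA and the motif of RUNX factors spelled TGTGGT. Neighbouring matches may overlap.
S100a9 (chr2:178490623-178490872, minus strand): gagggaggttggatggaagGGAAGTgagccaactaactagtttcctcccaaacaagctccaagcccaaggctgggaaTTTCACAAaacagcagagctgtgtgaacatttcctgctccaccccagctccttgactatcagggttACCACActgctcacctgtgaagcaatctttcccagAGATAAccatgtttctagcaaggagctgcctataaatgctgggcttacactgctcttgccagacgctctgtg
Camp (chr8:118721999-118722248, minus strand): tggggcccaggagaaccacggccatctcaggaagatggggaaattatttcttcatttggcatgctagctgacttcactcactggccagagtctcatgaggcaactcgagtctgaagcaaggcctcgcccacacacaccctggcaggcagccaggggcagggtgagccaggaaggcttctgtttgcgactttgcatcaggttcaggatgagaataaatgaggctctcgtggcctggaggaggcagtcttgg
Ngp (chr8:119272355-119272604, plus strand): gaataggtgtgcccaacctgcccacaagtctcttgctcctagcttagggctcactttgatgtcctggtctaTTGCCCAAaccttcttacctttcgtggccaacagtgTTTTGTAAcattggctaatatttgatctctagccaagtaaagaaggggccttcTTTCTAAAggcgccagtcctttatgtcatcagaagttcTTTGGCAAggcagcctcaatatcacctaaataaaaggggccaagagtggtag
RatNP-3b (chr16:77248978-77249227, minus strand): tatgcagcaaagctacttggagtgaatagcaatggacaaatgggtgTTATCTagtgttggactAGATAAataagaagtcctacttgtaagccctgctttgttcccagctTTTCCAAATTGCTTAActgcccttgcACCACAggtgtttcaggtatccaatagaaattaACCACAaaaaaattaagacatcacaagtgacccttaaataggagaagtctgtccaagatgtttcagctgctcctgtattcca
Np4 (chr16:77199643-77199892, minus strand): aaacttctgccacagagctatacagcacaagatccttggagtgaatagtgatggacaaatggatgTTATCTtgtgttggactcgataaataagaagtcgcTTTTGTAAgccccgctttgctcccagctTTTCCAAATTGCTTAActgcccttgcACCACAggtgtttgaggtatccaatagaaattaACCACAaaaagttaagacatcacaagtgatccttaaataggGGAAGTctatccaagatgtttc
S100a9 held 1 match to each of the 4 motifs. Camp held none of them in this window, and Ngp held 4 matches to the C/EBP motif and none to the others. RatNP-3b held 2 C/EBP, 2 GATA and 2 RUNX matches and no PU.1 match. Np4 held 3 C/EBP, 1 PU.1, 1 GATA and 2 RUNX matches. Of 33469 promoter windows of the same length, 37.2% held the C/EBP letters, 19.2% the PU.1 letters, 10.3% the GATA letters and 14.5% the RUNX letters, so a single match is common and is given as a description. The RatNP-3b and Np4 windows shared 170 of 231 bases (73.6%) when aligned without gaps at the best shift. In the RefSeq annotation S100a8 and S100a9 are adjacent on chromosome 2, Camp and Ngp lie on chromosome 8 with 11 genes between them, and RatNP-3b and Np4 lie on chromosome 16 with 2 genes between them.

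The 4 areas held 1587 (TN1), 1256 (TN2), 1917 (TN3) and 2013 (HC) spots and between 23546025 (TN1) and 41335930 (HC) UMIs. Depth per spot was uneven, with medians of 9487, 30808 and 14480 UMIs in the TN areas in order and 14616 in HC. Levels are given in CPM, the UMIs of a gene scaled to a common total of UMIs per area, and 95% intervals are exact Poisson or binomial intervals that cover counting error only. Spot barcodes name positions on the array, and 1236 barcodes occurred in 1 area, 1526 in 2, 759 in 3 and 52 in all 4. Over all genes the edgeR quasi-likelihood test of TN against HC called 0 of 14902 genes at an adjusted p under 0.05 (0%), with 1271 genes at an unadjusted p under 0.05, whereas DESeq2 called 144 (0.966%) and edgeR without TN1 called 2171. No statement below rests on that comparison.

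The calprotectin genes were far higher in HC than in any TN area. S100a8 gave 192, 273 and 364 UMIs in areas TN1 to TN3 (8.15, 7.04 and 11.3 CPM) against 3509 in HC (84.9 CPM, interval 82.1 to 87.7). S100a9 gave 253, 357 and 546 UMIs in areas TN1 to TN3 (10.7, 9.21 and 16.9 CPM) against 3654 in HC (88.4 CPM, interval 85.6 to 91.3). For both genes the 3 TN areas lay close together and well below HC, with HC 7.52-fold to 12.1-fold above the single TN areas for S100a8 and 5.22-fold to 9.60-fold for S100a9. The mean over TN areas was 8.83 ± 2.20 CPM for S100a8 and 12.3 ± 4.09 CPM for S100a9 (SD, n = 3).

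The secondary granule genes showed the same order of areas at lower counts. Camp gave 48, 57 and 82 UMIs in areas TN1 to TN3 (2.04, 1.47 and 2.54 CPM) against 874 in HC (21.1 CPM). Ngp gave 41, 36 and 58 UMIs in areas TN1 to TN3 (1.74, 0.929 and 1.80 CPM) against 502 in HC (12.1 CPM). HC was 8.31-fold to 14.4-fold above single TN areas for Camp and 6.75-fold to 13.1-fold above them for Ngp. The means over TN areas were 2.02 ± 0.537 CPM for Camp and 1.49 ± 0.487 CPM for Ngp (SD, n = 3), and TN2 was the lowest area for both.

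RatNP-3b and Alox15 differed more among the TN areas. RatNP-3b gave 74, 143 and 32 UMIs in areas TN1 to TN3 (3.14, 3.69 and 0.993 CPM) against 731 in HC (17.7 CPM), so TN3 was the low area. Alox15 gave 268, 41 and 472 UMIs in areas TN1 to TN3 (11.4, 1.06 and 14.6 CPM) against 1542 in HC (37.3 CPM), so TN2 was the low area. HC was 4.79-fold to 17.8-fold above single TN areas for RatNP-3b and 2.55-fold to 35.3-fold above them for Alox15. The TN means were 2.61 ± 1.43 CPM and 9.03 ± 7.09 CPM (SD, n = 3), and the Alox15 spread was the widest of the 6 relative to its mean.

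**Figure D1:**
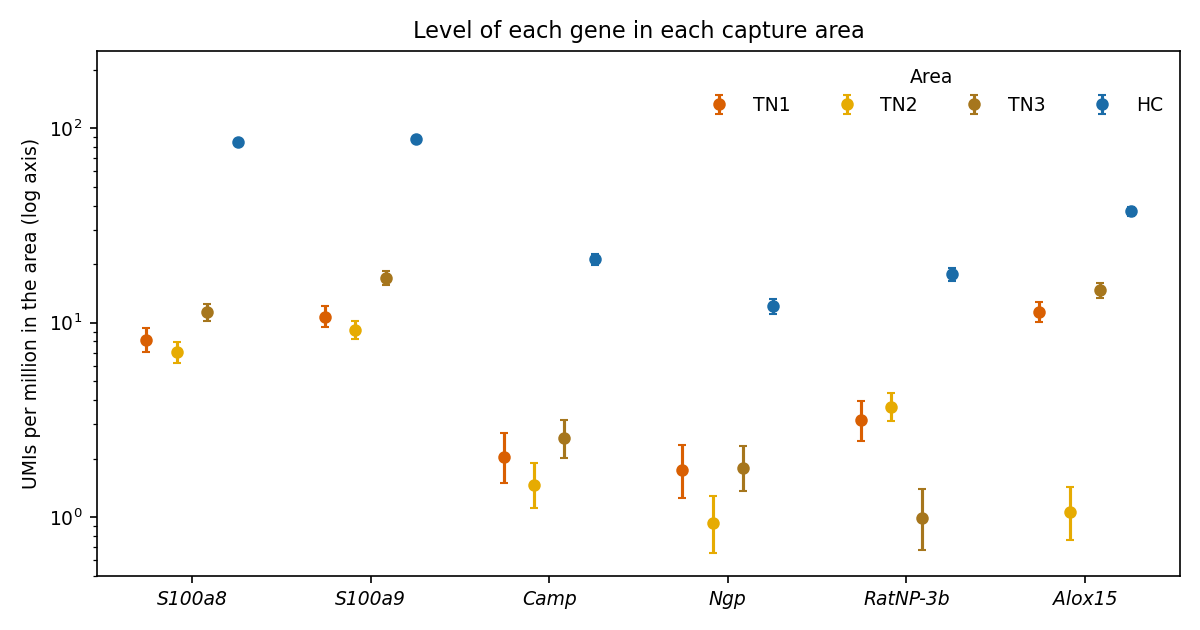
Level in CPM (log axis) of each gene in TN1, TN2, TN3 and HC, 1 point per area with its 95% Poisson interval. HC is the highest point for all 6 genes, from 12.1 CPM for Ngp to 88.4 CPM for S100a9, and TN2 is the lowest for Alox15 at 1.06 CPM.

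All 6 genes were higher in HC than in every TN area and all 6 were more than 2-fold above every TN area. Of 14443 genes with at least 30 UMIs, 25.5% were higher in HC than in every TN area and 1.04% were more than 2-fold above every TN area. The 6 genes were chosen on this contrast, so nothing is read from the difference. Markers of other cells also differed between the areas. The erythroid list summed to 44.3, 17.4 and 61.8 CPM in the TN areas in order and 91.6 CPM in HC, with 10 of its 11 measured genes highest in HC. The eosinophil and basophil list summed to 1.02 to 1.64 CPM in TN and 6.07 in HC, with 4 of its 7 genes highest in HC. That HC sum was mostly Prg2 at 4.55 CPM. The bone-forming list was mixed, with 3 of its 7 genes highest and 2 lowest in HC, and its sum of 210 CPM in HC (83.8 to 124 in TN) was mostly Bglap at 147 CPM. The macrophage list summed to 430, 924 and 1340 CPM in TN and 286 in HC. The part of these lists in the levels of the 6 genes was not tested, and in summed spots fewer cells of a type and less RNA per cell cannot be told apart.

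The transcripts reached a much larger share of the HC spots. S100a8 had at least 1 UMI in 6.74% of TN1 spots, 13.4% of TN2 spots, 11.6% of TN3 spots and 51.9% of HC spots (interval 49.7% to 54.1%). After every spot was thinned to 2000 UMIs, with shallower spots left out (9, 16 and 116 of the TN areas in order, and 9 of HC), the shares were 1.46%, 1.69%, 2.33% and 15.1%. Thinning lowered every share and HC remained the highest area. Camp had a UMI in 20.8% of HC spots and in 1.76% to 3.66% of the spots of single TN areas, and Alox15 in 41.5% of HC spots and in 10.1% of TN1 spots, 2.95% of TN2 spots and 17.7% of TN3 spots.

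In HC a low level of S100a8 was also found in spots rich in central myelin genes. In the HC spots richest in central myelin genes (101 spots, median 12177 UMIs) S100a8 had a UMI in 24.8% of spots, a share below that of all HC spots (51.9%, median 14616 UMIs) but above that of every TN area. The same spots gave 25.9 CPM of S100a8 against 84.9 CPM over the whole area. In the TN areas the share of such spots with S100a8 was 1.27% of 79 in TN1, 11.1% of 63 in TN2 and 2.08% of 96 in TN3, at median depths of 5533, 8313 and 3872 UMIs. Camp had a UMI in 7.92% of the HC spots of this kind and in 0 of those of the TN areas, which allows shares of up to 3.80%, 4.76% and 3.12% in TN1, TN2 and TN3. A spot covers several cells, so these shares do not show which cells held the transcripts, and their source was not tested.

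Spots carrying several of the genes together were rare in TN. In HC 18.0% of spots held no UMI of any of the 6 genes and 17.3% held at least 4 of them, including 29 spots with all 6. In TN1, TN2 and TN3 the shares with none were 75.8%, 66.6% and 60.4%, and those with at least 4 were 0.189%, 0.796% and 0.209%, with no spot holding all 6. HC spots with at least 4 of the genes had a median of 14619.5 UMIs against 12032.5 in HC spots with none.

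The concentration of the transcripts in few spots was strongest where counts were lowest. The top 5% of spots by S100a8 held 85.4%, 61.5% and 65.1% of its UMIs in the TN areas in order and 52.3% in HC. For Camp and Ngp fewer than 5% of TN spots held any UMI, so their top 5% held 100% by construction and nothing can be read from it. Inside the cut the lowest S100a8 spot had 5 UMIs in HC and 1 in each TN area, and the highest spot outside it had the same number. Outside these spots S100a8 remained at 1.24, 2.82, 4.07 and 41.9 CPM in TN1, TN2, TN3 and HC, and S100a9 at 1.81, 4.28, 7.60 and 41.8 CPM. These levels are part of what chose the genes, and the ranking removes most positive spots in TN1 (79 of 107 for S100a8) but not in HC, so no fold is drawn from them. In HC the share of all genes with a higher top 5% share than S100a8 was 30.1%, against 53.8% for Alox15, whose top 5% held 33.1% of its UMIs.

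With spots ranked by the other 5 genes instead, Alox15 had the lowest share in every area. The top 5% of spots so ranked held 47.4%, 37.4%, 34.1% and 45.1% of S100a8 UMIs in TN1, TN2, TN3 and HC, and 54.2%, 33.3%, 28.0% and 48.1% of Camp UMIs. For Ngp the shares were 58.5%, 50.0%, 29.3% and 39.2%, and for RatNP-3b they were 20.3%, 39.9%, 12.5% and 38.7%. For Alox15 they were 6.34%, 7.32%, 5.08% and 11.3%. These spots held between 1.72% and 3.03% of all UMIs, so Alox15 was 2.14-fold to 6.16-fold over-represented in them, and each of the other 5 genes exceeded it in every area. Single spots weighed on these shares. The richest spot held 33.3% of Camp UMIs in TN1, 24.4% in TN3 and 20.8% in HC, and 23.7% of RatNP-3b UMIs in HC. Whether the order of the genes holds without such spots was not tested.

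**Figure D2:**
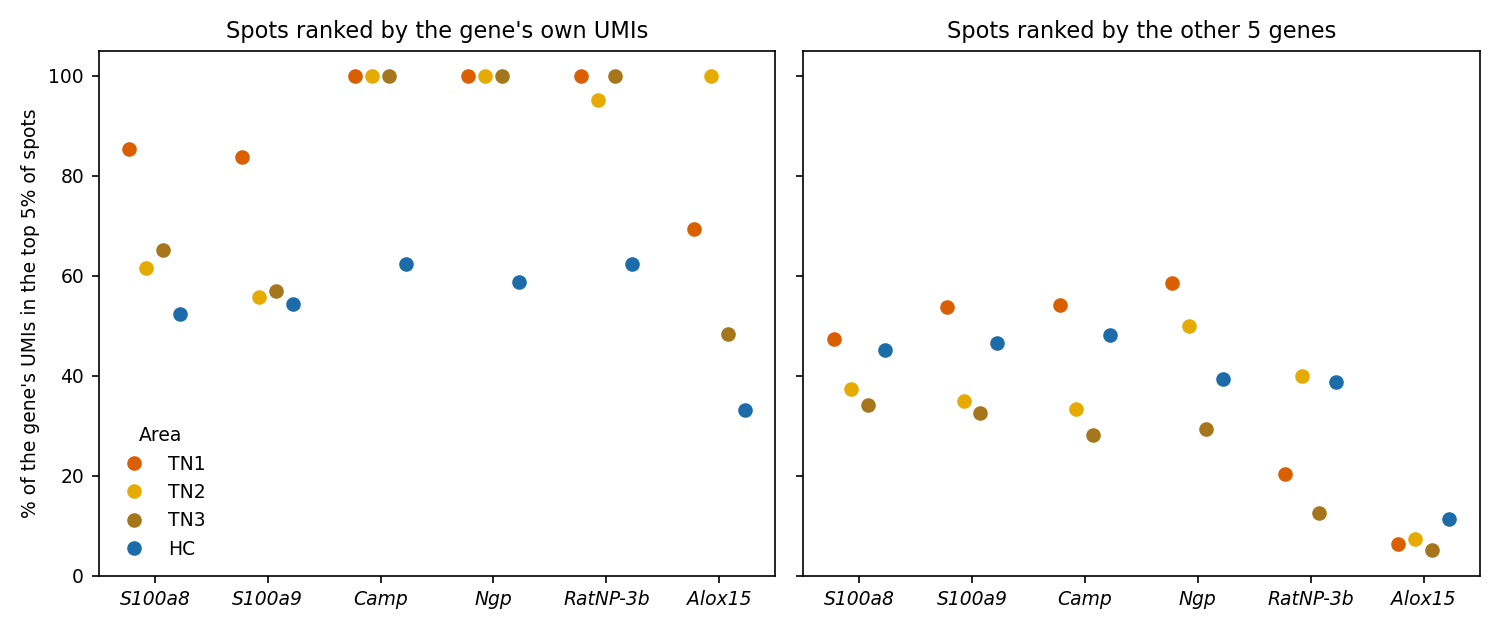
Share of each gene's UMIs held by 5% of the spots of each area, with spots ranked by the gene's own UMIs (left) or by the summed CPM of the other 5 genes (right). On the right Alox15 lies between 5.08% and 11.3% in all 4 areas, while S100a8 lies between 34.1% and 47.4%. The richest single spot of an area held 8.42% (TN2) to 21.4% (TN3) of S100a8 UMIs.

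A few single spots carried much of the signal. The HC spot with the most member UMIs held 415 of S100a8, 490 of S100a9, 182 of Camp, 173 of RatNP-3b and 20 of Alox15 but 1 of Ngp, and the 6 genes made up 8.80% of its 14555 UMIs. It held 20.8% of all Camp UMIs and 23.7% of all RatNP-3b UMIs of HC. The richest TN3 spot held 78 UMIs of S100a8, 109 of S100a9, 20 of Camp and 12 of Ngp and none of RatNP-3b or Alox15, and the richest TN1 spot held 24, 39, 16 and 8 of the first 4 genes and none of the last 2. In both of those spots the first 4 genes reached their maximum of the area together. In each TN area the richest spot lay outside the erythroid-rich and macrophage-rich sets described below, while that of HC was erythroid-rich. Without the richest spot of each area, HC kept 74.9 CPM of S100a8, 16.7 CPM of Camp and 13.5 CPM of RatNP-3b.

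By the mean correlation over areas the genes fell into 3 groups, which were less distinct in HC. For each gene the 5 genes with the most similar pattern were taken as those with the highest mean over the 4 areas of the Pearson correlation of log2(UMIs per 10000 plus 1), among 11794 genes with a UMI in at least 1% of spots of every area. Spots of an area share a library, neighbouring tissue and uneven depth, so these values are a description. S100a8 was most like S100a9 (mean r 0.52, from 0.42 in TN3 to 0.72 in HC), then Ngp (0.38) and Camp (0.37), and Camp was most like Ngp (0.43, from 0.34 in TN2 to 0.53 in TN3). After the members, Camp and Ngp were most like LOC24906 (0.23 and 0.21) and Lcn2, a secondary granule gene (0.21 and 0.20), and S100a8 and S100a9 had the alpha-globin gene Hba-a2 (0.26 for each). In HC alone S100a8 (r 0.56) and S100a9 (0.51) correlated with Hba-a2 about as much as with Camp (0.54 and 0.52). In the TN areas their values with Hba-a2 were 0.14 to 0.19.

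RatNP-3b was most like 2 other alpha-defensins, Np4 (mean r 0.41, from 0.21 in TN3 to 0.66 in TN2) and Defa5 (0.36, from 0.26 to 0.60). Its next genes were weaker by the mean, with Gh1 at 0.18, S100a8 at 0.17 and Hba-a2 at 0.17. In HC alone, S100a8 (0.39) and Hba-a2 (0.39) were above Np4 (0.34) and Defa5 (0.32), so the defensin grouping held in the TN areas. RatNP-3b, Np4 and Defa5 are genes of the same family, whose transcript sequences were not compared here. Reads of one may have been assigned to another, so their separate values are uncertain.

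Alox15 was most like globin genes. Its 5 nearest entries were Hba-a2 (2 entries of that symbol, each 0.37), LOC100134871 (0.37), LOC689064 (0.37) and Hba-a3 (0.36), and its correlation with Alas2, the erythroid enzyme of heme synthesis, was 0.39, 0.18 and 0.32 in the TN areas in order and 0.42 in HC. With the other 5 members its mean correlation was 0.06 to 0.10. In the TN areas alone it lay between -0.02 and 0.09, against 0.15 to 0.36 in HC. Likeness to globin genes was not particular to Alox15 in HC. There its r with Hba-a2 was 0.55 and 0.54 for the 2 entries, against 0.56 for S100a8.

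**Figure D3:**
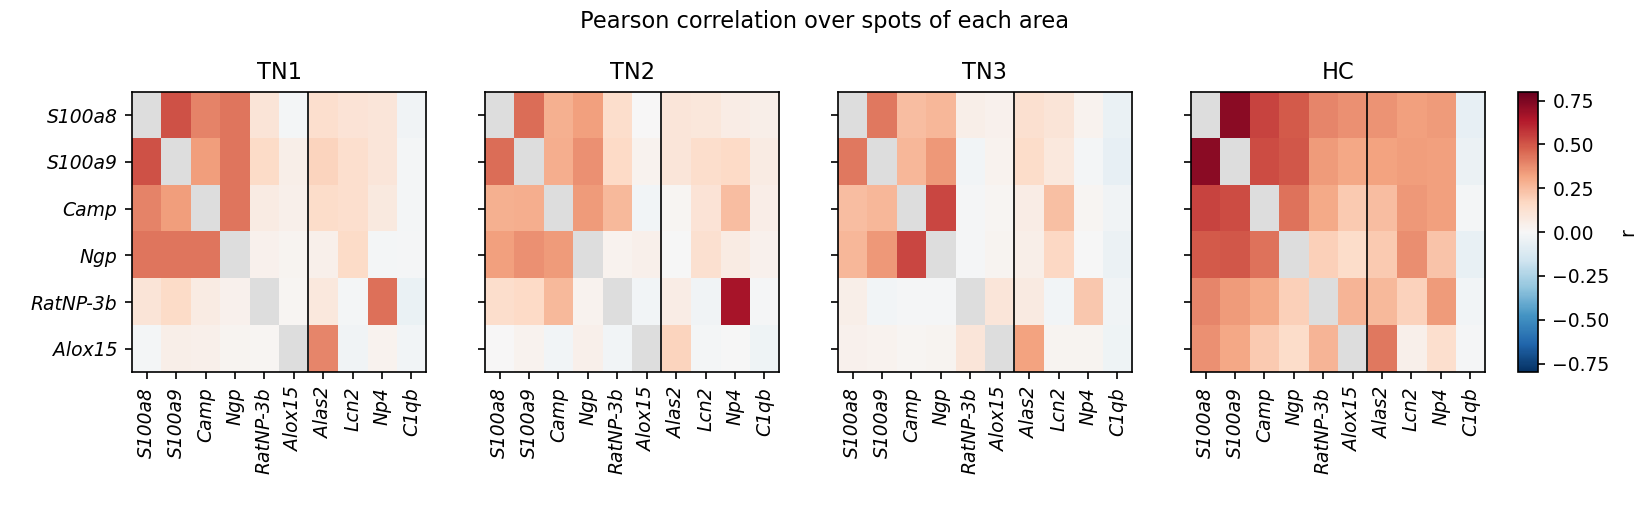
Pearson r over the spots of each area between the 6 genes (left of the line) and Alas2 (erythroid), Lcn2 (secondary granule), Np4 (alpha-defensin) and C1qb (macrophage), with the diagonal in grey. S100a8, S100a9, Camp and Ngp form a block with r from 0.25 to 0.72, RatNP-3b pairs with Np4 in the TN areas, and Alox15 pairs with Alas2. In HC the r of RatNP-3b is 0.39 with S100a8 and 0.34 with Np4.

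The UMIs of 1 gene per UMI of another within an area do not depend on the depth of the area. Camp per S100a8 was 0.250, 0.209 and 0.225 over the TN areas in order and 0.249 in HC, with overlapping 95% intervals (0.154 to 0.345 over the TN areas, 0.231 to 0.268 in HC), although S100a8 itself differed 12.1-fold between TN2 and HC. Ngp per S100a8 was 0.214, 0.132, 0.159 and 0.143 and its intervals also overlapped. S100a9 per S100a8 was 1.32, 1.31 and 1.50 in the TN areas and 1.04 in HC, where the interval (0.994 to 1.09) lay below that of TN2 (1.11 to 1.54) and TN3 (1.31 to 1.72) and met that of TN1 (1.09 to 1.60) at its edge. RatNP-3b per S100a8 ranged from 0.0879 in TN3 through 0.208 in HC and 0.385 in TN1 to 0.524 in TN2. Alox15 per S100a8 was 1.40, 0.150 and 1.30 over the TN areas and 0.439 in HC, and for both genes the HC value lay inside the range of the TN areas.

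The balance within the defensin family also differed. Np4 per RatNP-3b was 1.58, 1.67 and 1.28 over the TN areas and 0.482 in HC (interval 0.423 to 0.548), below the intervals of all 3 TN areas. Defa5 per RatNP-3b was 1.14, 1.50, 1.47 and 0.486 in the same order, while Np4 per Defa5 was 0.872 to 1.39 in TN and 0.992 in HC. Defa8 gave 39, 7 and 24 UMIs in TN1, TN2 and TN3 and 0 in HC, where a count of 0 allows up to 0.0726 CPM (3 counts), and Defa9 gave 12, 0 and 13 UMIs in TN and 0 in HC. Assignment of reads between genes of this family may move such ratios, which was not tested.

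**Figure D4:**
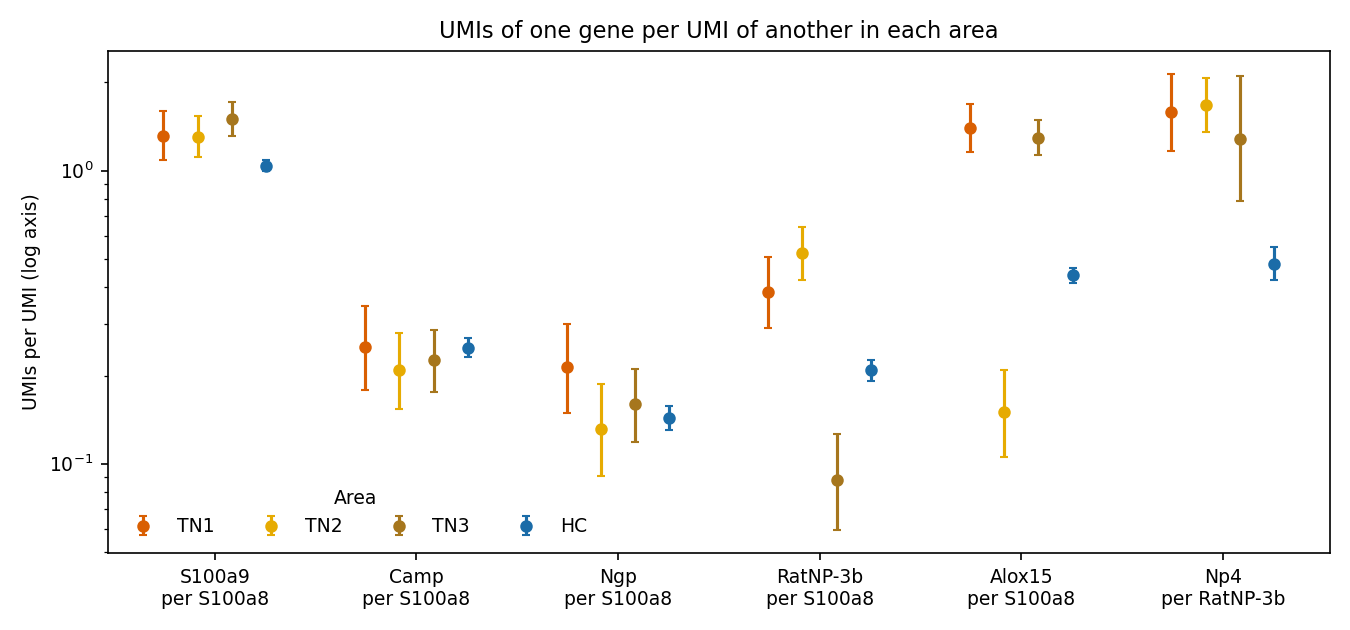
UMIs of the first gene per UMI of the second in each area (log axis), with exact 95% intervals for counting error. Camp and Ngp per S100a8 overlap across all 4 areas, RatNP-3b and Alox15 per S100a8 spread widely among TN areas, and Np4 per RatNP-3b is lowest in HC at 0.482.

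Other neutrophil genes followed the 6 only in part. Among secondary granule genes, Lcn2 (lipocalin 2) was at 7.39, 7.69 and 8.78 CPM in TN and 15.9 in HC, and Cd177, a neutrophil surface protein, at 0.248 to 0.361 CPM in TN and 2.64 in HC. Mmp8, the neutrophil collagenase, did not follow, with 0.297, 7.71 and 7.91 CPM over the TN areas and 4.52 in HC, nor did Chi3l1, with 29.2 to 36.1 CPM in TN and 16.2 in HC. Ltf, which encodes the defining secondary granule protein lactoferrin, had 0, 7, 2 and 2 UMIs. Of the 8 secondary granule genes measured, 4 were highest in HC and 1 was lowest there. Over all genes with at least 30 UMIs these shares were 25.5% and 35.0%, and nothing is read from so few genes.

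The primary granule list was nearly silent. Mpo, which encodes myeloperoxidase, had 12, 17, 6 and 43 UMIs in TN1, TN2, TN3 and HC, Elane had 3, 5, 13 and 12, Prtn3 had 17, 29, 20 and 45, and Ctsg had 1, 6, 7 and 22. Summed over its 6 genes the list was at 1.46 to 1.55 CPM in TN and 2.95 in HC. Among late neutrophil genes and receptors, the chemokine receptors Cxcr2 and Cxcr1 had 1 and 6 UMIs over all areas and the formyl peptide receptor Fpr1 had 0. Mmp9, a gelatinase that other cells also make, had 416 UMIs (0.637, 3.25 and 5.34 CPM in TN and 2.49 in HC), Il1b had 162, Mcemp1 70, Trem1 35 and Fpr2 27. Csf3r, the receptor of granulocyte colony-stimulating factor, was at 1.23, 2.53, 3.72 and 2.13 CPM. The 4 measured subunits of the phagocyte oxidase, which macrophages share, summed to 62.5, 206 and 226 CPM in TN and 53.3 in HC.

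A comparison of spot sets ranked without the members' counts asked in which spots the genes had a higher level. The top 5% of spots of each area by a list of red cell precursor genes were called erythroid-rich, and the top 5% by a macrophage list macrophage-rich. Each set was compared with the other spots, with UMIs summed per area and set and the area as a block. Each contrast thus rests on 4 areas. Its p-values ask whether the sets differed on average, with the level of each area taken out by the block. The difference is judged against the remaining variation between sums, which is pooled over all sets and draws on other genes. The erythroid list (Alas2, Slc4a1, Ahsp and others) held no hemoglobin gene and no member. The paper had already named S100a8, S100a9, RatNP-3b and Alox15 with Slc4a1 and Ahsp as abundant in the same cluster of these spots. The erythroid contrasts therefore describe an association known beforehand, and their p-values are not independent support for it. The sets held 53 to 98 spots per area. Erythroid-rich spots were shallower than the others, with medians of 4105 to 9714 UMIs against 9911 to 32109.5. They also differed from other spots in nerve tissue genes. All 8 central myelin genes tested were higher there, 3 of them called by edgeR. All 7 sensory neuron genes tested were lower, 5 of them called. In macrophage-rich spots the directions were the same, with 8 and 7 called. The part of such tissue differences in the levels of the members was not tested.

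The calprotectin genes were higher in erythroid-rich spots of every area. S100a8 was at 33.1 CPM in erythroid-rich and 7.44 in other spots of TN1, 28.6 and 5.96 in TN2, 51.5 and 10.8 in TN3, and 887 and 67.9 in HC. The direction was the same in all 4 areas, and the log2 difference was 3.07 (SE 0.41, edgeR adjusted p = 0.00114). S100a9 rose by 2.98 (SE 0.44, edgeR adjusted p = 0.0024), also in 4 of 4 areas. In HC 1 erythroid-rich spot held 415 of the 745 S100a8 UMIs and 490 of the 830 S100a9 UMIs of that set. Without the richest spot of each area the log2 differences were 2.76 for S100a8 and 2.68 for S100a9. The full top 5% by the erythroid list held 12.5%, 10.3% and 8.24% of S100a8 UMIs in TN1 to TN3 and 21.3% in HC. For S100a9 the shares were 15.4%, 10.9%, 5.86% and 22.8%, so most UMIs of both genes lay elsewhere. Across all 9026 genes tested 5.13% were called, 2.17% as higher. edgeR called each of the 6 genes as higher. Camp and Ngp entered the test only through HC, the area where they were high. RatNP-3b entered mostly through erythroid-rich sums, the set where it was high. The calls of Camp, Ngp and RatNP-3b are described below and not counted as support.

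Alox15 was higher in erythroid-rich spots of every area. It was at 150 CPM in erythroid-rich and 6.95 in other spots of TN1, 8.18 and 0.761 in TN2, 145 and 12.9 in TN3, and 275 and 32.2 in HC, a log2 difference of 3.89 (SE 0.28, edgeR adjusted p = 2.13e-06). Within areas its ratio of erythroid-rich to other spots was 21.5, 10.7 and 11.3 over the TN areas and 8.53 in HC. For S100a8 the same ratio was 4.44, 4.81 and 4.76 in the TN areas and 13.1 in HC. HC thus had the lowest ratio for Alox15 and the highest for S100a8, a difference that was not tested. The richest HC spot held 415 of the 745 S100a8 UMIs in the erythroid-rich spots of HC, but 20 of the 231 Alox15 UMIs. The high HC ratio of S100a8 thus rests largely on 1 spot.

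For the granule genes the result rested on HC. RatNP-3b had 16, 3 and 6 UMIs in the erythroid-rich spots of areas TN1 to TN3 in order and 231 in those of HC, and its log2 difference was 3.60 (SE 0.54, edgeR adjusted p = 0.00249), with a higher level in 3 of 4 areas. The richest HC spot was among the erythroid-rich ones and held 173 of the 231, and without the richest spot of each area the log2 difference was 2.57 (edgeR adjusted p = 0.00692). Camp had 5, 0, 3 and 243 UMIs there, and its log2 difference was 3.35 (SE 0.56, edgeR adjusted p = 0.00595), with 3 of 4 areas higher. That HC spot held 182 of the 243, and without the richest spots the log2 difference was 2.20 (edgeR adjusted p = 0.0146). Ngp had 0, 1, 2 and 76 UMIs, and its log2 difference was 2.46 (SE 0.58, edgeR adjusted p = 0.0273), with 3 of 4 areas higher. All 6 genes passed the filter on low counts, Camp and Ngp only through HC, since no TN sum of either reached the filter's level of 9.48 CPM. A gene that passed in this way had to differ, so the calls of Camp and Ngp are not read as a result. RatNP-3b reached that level in erythroid-rich spots of TN1 (23.0 CPM), TN3 (11.5 CPM) and HC (275 CPM). Elsewhere it did so only in the other spots of HC (12.6 CPM). It passed mostly through the set where it was high, so its call is not read as a result either. Without HC, S100a8 (log2 2.40, edgeR adjusted p = 0.0172), S100a9 (log2 2.34, edgeR adjusted p = 0.0193) and Alox15 (log2 4.15, edgeR adjusted p = 1.46e-05) were still called and RatNP-3b was not (log2 2.37, edgeR adjusted p = 0.0681). DESeq2 called 4 of the 6 and not Camp (adjusted p = 0.127) or Ngp (adjusted p = 0.554), and Ngp was also lost without TN2 (edgeR adjusted p = 0.0577).

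None of the 6 genes passed in the macrophage-rich spots. In macrophage-rich against other spots edgeR called 0 of 6 members where 30.9% of all genes tested were called, with 0 of 6 at an unadjusted p under 0.05 and 0 of 6 called by DESeq2. In these spots of TN1, TN2, TN3 and HC, Camp had 1, 3, 3 and 9 UMIs and Ngp 0, 3, 2 and 4. Given these counts and how Camp, Ngp and RatNP-3b passed the filter, only S100a8, S100a9 and Alox15 are set against that share. The log2 differences were 0.34 for S100a8 (SE 0.49), 0.21 for S100a9 (SE 0.52), 0.14 for Alox15 (SE 0.37), -0.76 for Camp (SE 0.84), -0.90 for Ngp (SE 0.86) and -2.56 for RatNP-3b (SE 1.21), with edgeR adjusted p from 0.126 to 0.813. These errors leave room for differences in either direction, and S100a8 was at 28.5 CPM in the macrophage-rich spots of TN2 against 5.96 in its other spots. RatNP-3b was lower in macrophage-rich spots in 4 of 4 areas, but with only 1, 1, 0 and 2 UMIs there in TN1, TN2, TN3 and HC. It passed as lower in 2 of 12 alternatives, without TN2 (edgeR adjusted p = 0.0368) and with no filter on low counts (edgeR adjusted p = 0.000209). At such counts these calls are not read as a result.

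Set against each other, erythroid-rich spots exceeded macrophage-rich spots in 4 of 4 areas for S100a8, S100a9, RatNP-3b and Alox15. In TN2, however, S100a8 was level between the sets, at 28.6 against 28.5 CPM (28 against 26 UMIs). RatNP-3b there had 3 against 1 UMI. Of all genes tested 5.42% were called, 3.35% as higher. RatNP-3b differed by 6.16 on the log2 scale (SE 0.94, edgeR adjusted p = 0.00229), Alox15 by 3.74 (SE 0.36, edgeR adjusted p = 7.09e-05), S100a9 by 2.77 (SE 0.52) and S100a8 by 2.73 (SE 0.49). Camp was at 4.11 (SE 0.75) with 3 of 4 areas higher and Ngp at 3.36 (SE 0.82) with 2 of 4. Both again entered only through HC, and DESeq2 called neither (adjusted p = 0.230 for Camp and 0.538 for Ngp). RatNP-3b again entered mostly through erythroid-rich sums, so its call is not counted as support here either. Without HC only Alox15 was still called among the 4 genes that could be tested, with edgeR adjusted p = 0.159 for S100a8, 0.0983 for S100a9 and 0.153 for RatNP-3b.

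**Figure D5:**
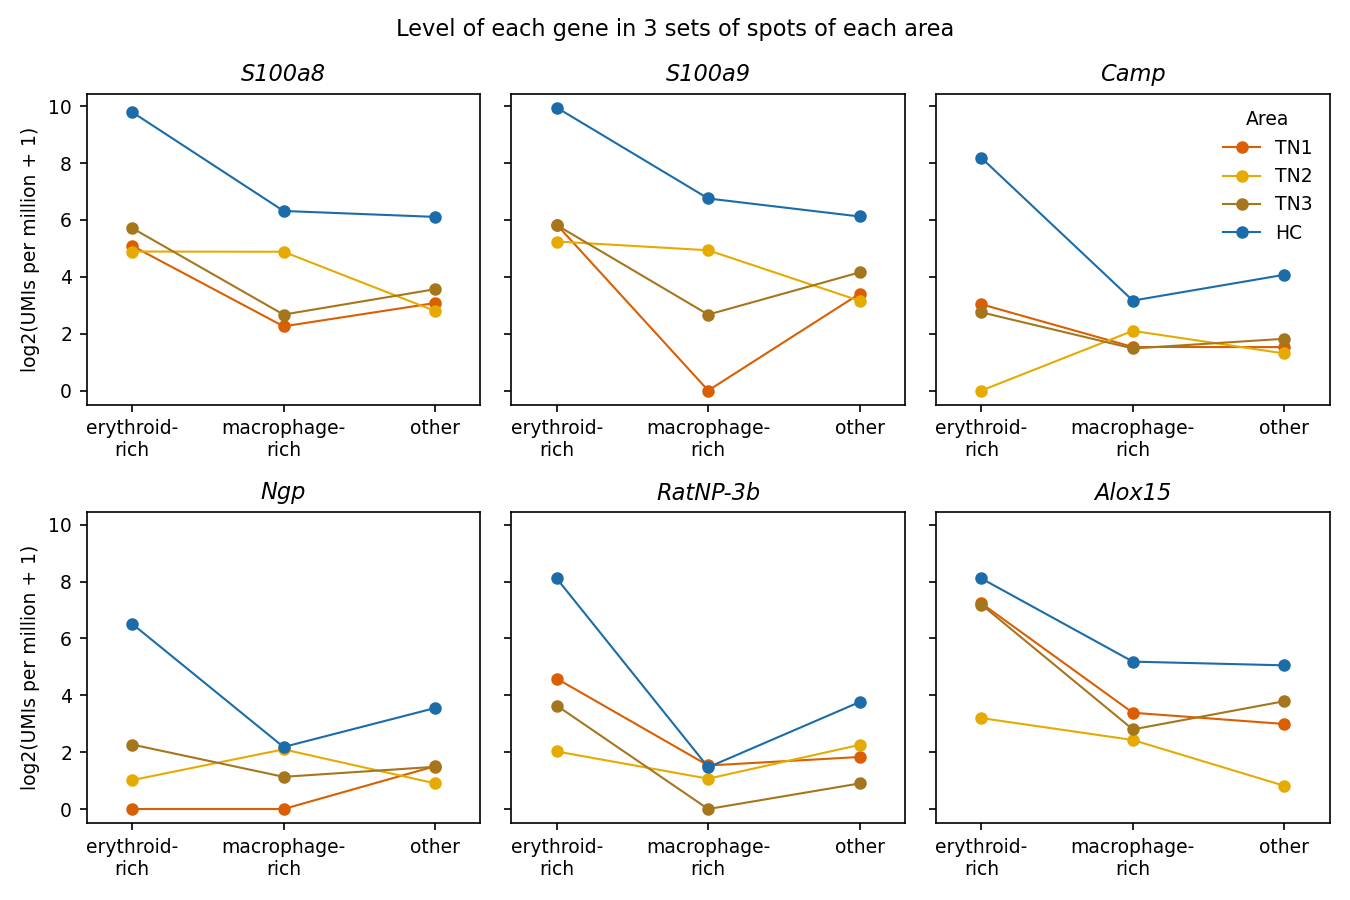
Level of each gene, as log2(CPM + 1), in the erythroid-rich, macrophage-rich and other spots of each area, with lines joining the sets of 1 area. HC is highest in erythroid-rich spots for every gene, Alox15 rises in all 4 areas, and Camp in TN2 and Ngp in TN1 are at 0 in erythroid-rich spots.

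Related genes also differed between these sets. Both defensins with enough counts to be tested were called higher in erythroid-rich spots, against a median of -0.03 over all genes tested. The log2 differences were 2.77 for Np4 (SE 0.70, edgeR adjusted p = 0.0355) and 2.78 for Defa5 (SE 0.67, edgeR adjusted p = 0.0289). In erythroid-rich spots of TN1, TN2, TN3 and HC, Np4 had 20, 0, 1 and 98 UMIs and Defa5 22, 2, 0 and 84. In TN2 all 239 Np4 UMIs lay in other spots. These calls rest on TN1 and HC and are not counted as support. Of 3 secondary granule genes tested Chi3l1 passed (0.88, SE 0.21, edgeR adjusted p = 0.0296) and was higher still in macrophage-rich spots (1.75, SE 0.18, edgeR adjusted p = 1.17e-05), whereas in erythroid-rich spots Lcn2 was at 1.25 (SE 0.46, edgeR adjusted p = 0.126) and Mmp8 at 0.86 (SE 0.52). None of the 6 primary granule genes had enough counts to be tested. In macrophage-rich spots, where 30.9% of all genes were called, 4 of 4 oxidase subunits rose, with Ncf1 at 1.85 (SE 0.23) and Cybb at 1.05 (SE 0.38), as did Spi1, the gene of the myeloid factor PU.1, at 1.85 (SE 0.17) and Csf3r at 2.37 (SE 0.36). Of the lipoxygenase list, Ltc4s (2.28, SE 0.26) and Alox5ap (1.23, SE 0.23), which act in leukotriene synthesis, rose in macrophage-rich spots, where Alox15 did not pass.

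Spots where the 6 genes made up the largest share of UMIs also overlapped with spots ranked by other cell type lists. Spots in the top 5% by the summed 6 genes and in the top 5% by the erythroid list coincided for 31 of 79, 7 of 63 and 40 of 96 spots of the TN areas in order and 30 of 101 spots of HC. In HC 30 of the 101 were also among the top 5% by the fibroblast list and 24 by the bone-forming list, with 2 by the macrophage list and 0 by the peripheral myelin or sensory neuron list. The summed 6 genes include Alox15, so the overlap with the erythroid list is not one of the neutrophil genes alone. Of the top 5% by that list, 31, 6 and 41 spots of TN1 to TN3 held Alox15. S100a8 was found in 14, 8 and 18 of them. The part of Alox15 in the overlap was not tested. Among the sets of spots so ranked by each cell type list, the TN1 level of S100a8 was highest in fibroblast-rich spots (52.0 CPM), above erythroid-rich ones (33.4), and in TN3 it was highest in megakaryocyte- and platelet-rich spots (68.2 CPM against 55.2). In TN2 and HC hemoglobin-rich spots were highest (31.0 and 931 CPM). Camp and Ngp shared the fibroblast-rich maximum in TN1 (29.7 and 13.4 CPM) and the megakaryocyte maximum in TN3 (15.8 and 12.2 CPM). The richest single spot held 12.5% of S100a8, 33.3% of Camp and 19.5% of Ngp UMIs in TN1. In TN3 it held 21.4%, 24.4% and 20.7% of them. These maxima may rest on such single spots, which was not tested, so their sharing by the genes is not independent. Alox15 was highest in erythroid- or hemoglobin-rich spots in every area.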

How the data were processed

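The UMI counts per gene and spot were deposited by the authors as 1 filtered matrix of 4 capture areas, made with Space Ranger 1.2.0 per the file header, with STAR named in the submitters' processing notes. The sources used here do not name a genome build or annotation for the counts. Spots were assigned to areas by barcode suffix, whose order was taken from the order of areas in the series record (3 TN areas, then HC). No spot was filtered and no doublet caller was run, since a spot holds several cells. Counts were summed per area, or per area and spot set, and tested with edgeR 4.0.16 (quasi-likelihood, TMM, filterByExpr, Benjamini-Hochberg at 0.05 over all genes tested) in R 4.3.3, with DESeq2 1.42.0 as an alternative. Both steps were tested on simulated counts. Levels are CPM of all UMIs of an area, intervals are exact at 95%, and thinning drew 2000 UMIs per spot. The 4 areas held 23546025, 38769935, 32239597 and 41335930 UMIs, where 1 UMI is 0.0425, 0.0258, 0.0310 and 0.0242 CPM.

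The members, the gene lists and the spot sets were chosen with earlier results of these data known. Named genes were the 6 members, every gene of the neutrophil, oxidase, lipoxygenase and receptor lists (1 gene of them is not reported here), up to 4 genes of every other list by UMIs, and for each member the 5 genes of highest mean correlation over spots. Alternatives changed the scaling, the filters, the spots, the cut of the sets and the areas included. Tool steps ran in Python 3.11.15 with SciPy 1.17.1 and Matplotlib 3.10.9. Promoter sequences came from RefSeq (GRCr8), matched by symbol, and no coordinates of the counts were used.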

Additional observations from a re-analysis of the deposited data

How the results depend on the processing

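The number of genes called in TN against HC was 0 with the main edgeR settings, 144 with DESeq2 and 0 to 2171 when 1 TN area was left out, the latter without TN1. In erythroid-rich against other spots 463 genes were called, 1279 with no filter, 308 with the top 2% of spots, 717 with hemoglobin genes in the erythroid list, 0 without the area as a block, and 79 to 336 when 1 area was left out, with the fewest without TN2 (206 without TN1, 207 without TN3). In macrophage-rich against other spots 2791 were called, 1820 with the top 2% of spots and 443 without the block. Erythroid-rich against macrophage-rich spots gave 489, with 814 under no filter, 298 with the top 2%, 297 with hemoglobin genes, 0 without the block and 168 to 360 when 1 area was left out (168 without HC, 247 without TN1). Without the block 0 of the 4 members that could be tested passed in any contrast, and with the top 2% of spots 3 members (S100a8, S100a9 and Alox15) could be tested and passed in both erythroid contrasts. Leaving out the spot of most member UMIs in each area was an alternative chosen after seeing the data. All 6 genes were still called in both erythroid contrasts, with a log2 difference from other spots of 2.20 for Camp and 2.57 for RatNP-3b. The calls of Camp, Ngp and RatNP-3b are not read as results here either, given how these genes passed the filter.

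The direction in macrophage-rich spots, which passed no test, turned for S100a8 without TN2 (log2 -0.30), with the top 2% (-0.76) and with the top 10% (-0.24), for S100a9 under the same settings (-0.37, -0.77 and -0.024) and DESeq2 (-0.027), for Camp with DESeq2 (0.13), and for Alox15 without HC (-0.24), with the top 2% (-0.22) and with the top 10% (-0.15). When 1 area was left out these values ran from -0.30 to 0.74 for S100a8, -0.37 to 0.78 for S100a9 and -0.24 to 0.64 for Alox15, each highest without TN3. The cause was not tested. In TN against HC the log2 ratio of each member stayed negative under TMM, each left-out TN area, the spot filters and the gene filters. With the top 10% of spots by the erythroid list left out, this ratio was -2.998 for S100a8. The genes were chosen on this contrast, so these values are a description.

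No paired analysis was possible because, in TN against HC, the HC label carries no replicate number that a TN label shares. HC is 1 area of 2 animals, Camp and Ngp had 0 to 5 UMIs in the erythroid-rich spots of each TN area, and no count of 0 there shows absence. No spot positions were used here. Alternatives for the level outside a gene's top 5% of spots were run for S100a8 and S100a9 alone, since each other gene was at 0 there in at least 1 TN area.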
